A study of Mus musculus with 3 samples.

Results

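The transforming growth factor beta (TGF-beta) genes examined here were 10 of the 32285 features counted in regenerating mouse tibialis anterior muscle. They were taken by gene symbol, and each symbol had 1 feature. They comprise the ligands Tgfb1, Tgfb2 and Tgfb3, the receptors Tgfbr1, Tgfbr2 and Tgfbr3, and the latent TGF-beta binding proteins Ltbp1, Ltbp2, Ltbp3 and Ltbp4. Single-cell RNA sequencing had been performed on C57/BL6J mice whose muscle was injured by barium chloride and collected 4 days later. There were 3 groups: young animals given saline (young PBS), old animals given saline (old PBS) and old animals (old rMETRNL) given recombinant meteorin-like protein, a secreted cytokine. All 3 groups carried the injury, no uninjured muscle was included, and the labels give no age beyond young and old. Each group was 1 library made from pooled muscles, so the groups had no replicates and no test between them was possible.

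TGF-beta is made as a precursor whose propeptide stays wrapped around the ligand and keeps it latent. LTBP proteins tie this latent complex to the extracellular matrix, from which integrins, proteases and thrombospondin release it. Released ligand assembles the kinases TGFBR2 and TGFBR1, which activate SMAD transcription factors, while TGFBR3 (betaglycan) presents ligand to them. In injured muscle the pathway is known for restraining inflammation and for driving matrix deposition by fibroblast-like cells.

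The libraries held 12168, 12568 and 14012 barcodes with between 179295668 and 228966697 UMIs, and 10293, 9946 and 11353 cells were kept, always given in the order young PBS, old PBS and old rMETRNL. Of 11 cell classes named from marker genes, 9 had at least 100 cells in each library and were compared. All markers of each compared class were detected in each library. Fibro-adipogenic progenitor-like (FAP-like) cells, the matrix-producing fibroblasts of muscle, numbered 1621, 1321 and 1648, and macrophage/monocyte-like cells 6090, 5785 and 6594. The 10 genes were left out of the genes used for clustering, but the classes themselves depended on the cell filters, the resolution and the naming rules. Pairs of libraries shared 80, 58 and 76 barcode sequences, of which 28, 25 and 34 were among kept cells.

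A level is the UMIs of a gene summed over the cells of a class, scaled to the UMI total of that class (CPM), with an exact 95% Poisson interval. Ratios are given for 2 contrasts, age (the old PBS level divided by that of young PBS) and treatment (old rMETRNL divided by old PBS), so the old PBS library enters both. All intervals cover counting error only and describe these libraries, not the spread between mice. Free RNA can give UMIs in cells that do not make a transcript, so the markers of one class were also measured in the others. The 14 macrophage markers stood in FAP-like cells at 1.17%, 1.35% and 1.29% of their level in macrophages, with none at 0. In the other direction the 12 FAP markers stood in macrophage/monocyte-like cells at 0.354%, 0.339% and 0.388% of their FAP level, with none at 0.

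Several classes need care. Myocyte-like cells numbered 136, 511 and 210, with median UMI counts of 21573, 2513 and 3964.5, and held macrophage markers at 8.49%, 26.6% and 20.3% of the macrophage level. Pericyte/smooth muscle-like cells numbered 111, 136 and 114 and held the 11 endothelial markers at 53.9%, 40.3% and 48.5% of the endothelial level. In both cases no marker of the list was at 0. The myocyte-like class was also made of different clusters in each library. Mature fibre cells led by Pvalb, Ckm and Tcap numbered 34, 436 and 130, with median UMI counts of 3012.5, 2109.5 and 2246.5. Differentiating cells led by Myh3, Actc1 and Tnnt2, which also had the myogenic regulator Myog among their leading genes, numbered 95, 31 and 63. Those led by Xirp2, Myh1 and Mybpc2 numbered 7, 44 and 17. By number of cells, young PBS was thus mostly differentiating cells and both old libraries mostly mature fibre cells. Levels are summed over UMIs, however, so a differentiating cell (median 37846, 43971 and 26367 UMIs) weighed more than a mature fibre cell. T/NK-like cells comprised a cluster led by Cd3g, Trbc2 and Cd3d (106, 150 and 84 cells) and one led by Gzma, Xcl1 and Gzmb (105, 37 and 38 cells). Tenocyte-like cells numbered 189, 117 and 228 and carried FAP markers at 109.7%, 78.8% and 105% of the FAP level. Endothelial-like cells numbered 624, 881 and 936, held macrophage markers at 2.19%, 4.19% and 3.50% of the macrophage level, and had median UMI counts of 10979, 3749 and 6913.

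Upstream sequences are shown for 3 of the genes, because Tgfb1 and Tgfb2 led in different cell classes and Ltbp4 gave the largest difference between libraries in FAP-like cells. They are from the RefSeq promoter table on build GRCm38.p6, which held 12 windows for 8 of the 10 genes and none for Tgfb3 or Tgfbr3. Each is printed on the strand of its gene and ends at the base before a transcription start, except where the part inside an exon was left off. Capitals mark matches, on both strands, to the GC box, which is spelled GGGCGG. They also mark the CCAAT box, which carries its own spelling, and the TATA box, searched as TATAAA. Some GC boxes overlap each other.
Tgfb1, chr7:25686752-25687001, + strand: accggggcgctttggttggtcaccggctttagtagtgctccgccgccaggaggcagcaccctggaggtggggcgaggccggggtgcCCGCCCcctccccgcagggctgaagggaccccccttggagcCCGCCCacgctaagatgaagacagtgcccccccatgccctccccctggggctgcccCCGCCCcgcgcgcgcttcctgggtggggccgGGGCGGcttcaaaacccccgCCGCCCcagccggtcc
Tgfb2, chr1:186705990-186706239, - strand: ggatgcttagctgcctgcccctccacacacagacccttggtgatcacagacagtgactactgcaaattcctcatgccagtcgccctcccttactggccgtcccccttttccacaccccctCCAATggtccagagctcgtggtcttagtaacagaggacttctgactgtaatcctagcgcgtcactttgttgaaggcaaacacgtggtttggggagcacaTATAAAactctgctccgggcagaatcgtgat
Ltbp4, outer start, chr7:27337693-27337862, - strand: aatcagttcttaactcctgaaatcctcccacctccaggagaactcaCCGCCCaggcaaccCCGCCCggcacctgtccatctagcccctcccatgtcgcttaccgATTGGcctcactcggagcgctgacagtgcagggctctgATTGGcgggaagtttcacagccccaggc
Ltbp4, inner start, chr7:27333664-27333913, - strand: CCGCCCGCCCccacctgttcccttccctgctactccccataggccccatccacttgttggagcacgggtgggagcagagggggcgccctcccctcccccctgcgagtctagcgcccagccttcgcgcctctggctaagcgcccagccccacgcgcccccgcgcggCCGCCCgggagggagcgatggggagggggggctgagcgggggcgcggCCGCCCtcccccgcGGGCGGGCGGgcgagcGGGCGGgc

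The Tgfb1 window was 75.2% G and C and held 5 GC boxes, whereas the Tgfb2 window was 53.6% G and C and held no GC box. The Tgfb2 window had instead a TATA box beginning 31 bases before the start and a CCAAT box beginning 130 bases before it. An exon of an antisense non-coding gene also lies in the Tgfb2 window. The window printed for the inner Ltbp4 start was 79.2% G and C with 7 GC boxes, and the printed part of the outer one held 2 GC boxes and 2 CCAAT boxes. A further inner start at chr7:27333648, whose window is not printed, also had 79.2% G and C, with 5 GC boxes. Over 32851 windows of 250 bases, GGGCGG was found in 32.7%, CCAAT in 33.9% and TATAAA in 12.4%, and the median share of G and C was 52.4%. The AP-1 motif TGANTCA (6.75% of windows) and the palindromic SMAD motif GTCTAGAC (0.167% of windows) had no match in the windows of the 8 genes. The shorter SMAD-type motif CAGAC (42.2% of windows) had a match in those of 6 genes, Tgfb2, Tgfbr1, Tgfbr2, Ltbp1, Ltbp2 and Ltbp3, and none in those of Tgfb1 or Ltbp4. This motif is not marked by capitals. Its share of 42.2% counts single windows, whereas the 8 genes had 12 windows between them. For Tgfbr1 the match lay only in the window of a start 32994 bases inside the gene. These matches are descriptions of letters only, and UMI counts per gene do not separate transcripts by their start.

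The 10 genes fell into distinct cellular sources. Tgfb1 and Tgfbr1 were highest in macrophage/monocyte-like cells in all 3 libraries, Tgfb2, Tgfbr3 and Ltbp3 were highest in tenocyte-like cells in all 3, and the other 5 genes had no single leading class. For Tgfb3, Ltbp1, Ltbp2 and Tgfbr2 the lead passed among stromal, pericyte and endothelial classes, and for Ltbp4 it passed between endothelial-like and pericyte/smooth muscle-like cells. FAP-like cells, which outnumbered tenocyte-like cells in each library, supplied most transcripts of 6 genes: 74.3% to 78.8% of the Tgfb2 UMIs of kept cells, 73.0% to 80.7% for Tgfb3, 69.4% to 73.6% for Tgfbr3, 56.9% to 71.0% for Ltbp1, 83.9% to 88.2% for Ltbp2 and 66.5% to 69.2% for Ltbp3. Macrophage/monocyte-like cells supplied 81.8% to 86.6% of Tgfb1 UMIs and 79.5% to 85.8% of Tgfbr1 UMIs.

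**Figure D1:**
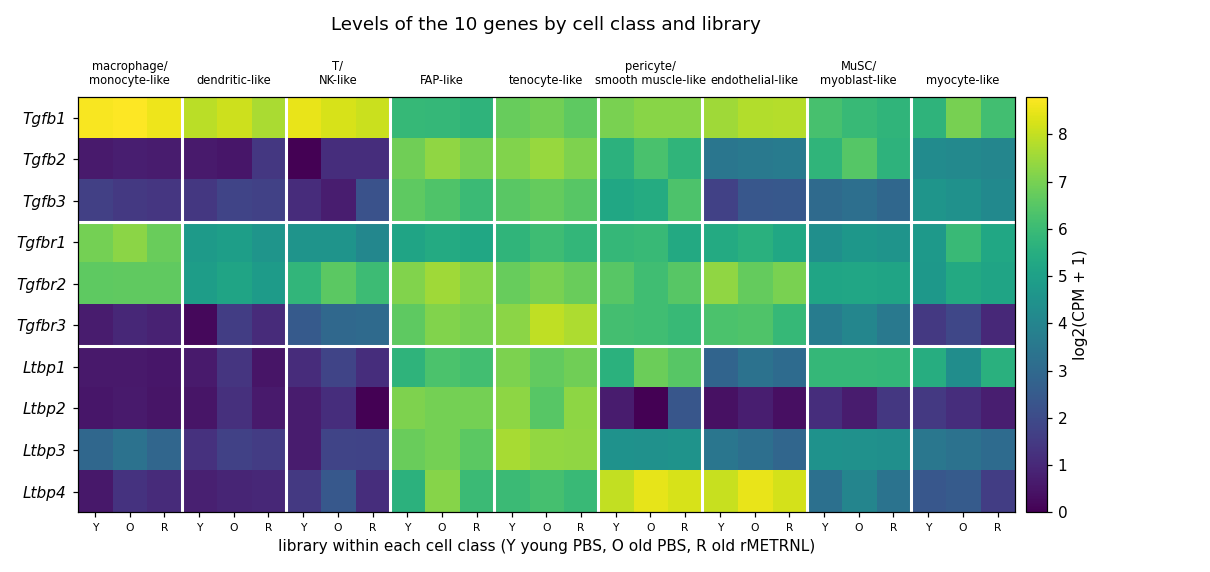
Level of the 10 genes as log2(CPM + 1) (colour) in 9 cell classes, with the young PBS, old PBS and old rMETRNL libraries side by side in each class. Tgfb1 was brightest in macrophage/monocyte-like cells, Tgfb2, Tgfb3, Ltbp2 and Ltbp3 were bright in FAP-like and tenocyte-like cells, and Ltbp4 was brightest in endothelial-like and pericyte/smooth muscle-like cells.

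A gene was called in a class when its ratio passed 1.5-fold, its counting interval left out 1, and it had at least 50 UMIs there over the 3 libraries. Of the 90 pairs of gene and class, 70 reached that count. In the age contrast 13 pairs were called higher and 3 lower, where 7.39% and 7.86% of all gene and class pairs were called higher and lower. In the treatment contrast 3 were called higher and 5 lower, against 5.62% and 4.6% of all pairs. Of these calls, 7 lay in the myocyte-like class, in which 18.9% of all genes were called higher and 26.8% lower in the age contrast, and 18.8% and 11.1% in the treatment contrast.

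In FAP-like cells 1 of the 10 genes was called higher with age (Ltbp4) and none lower, where 6.18% and 5.76% of all genes were called. The same gene was the 1 called lower in the treatment contrast and none was higher, against 3.63% lower and 3.82% higher among all genes. In macrophage/monocyte-like cells Tgfbr3 and Ltbp4 were called higher with age, both at levels under 2 CPM, and none lower, against 5.52% and 5.86% of all genes. None of the 10 was called in the treatment contrast in these cells, where 4.97% of all genes were higher and 3.03% lower. In endothelial-like cells Tgfb3 was called higher and Tgfbr2 lower with age, against 7.94% and 7.8% of all genes, and none of the 9 genes with enough UMIs was called in the treatment contrast, against 6.22% higher and 5.55% lower.

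Counts of ratios on either side of 1, without regard to the threshold, are given for the genes with enough UMIs in a class. In macrophage/monocyte-like cells 9 of the 10 genes lay above 1 in the age contrast, against 50.2% of all genes, and all 10 below 1 in the treatment contrast, against 42.5%. The median log2 ratios were 0.28 and -0.24, where the median of all genes was 0.00 and 0.05. Of these 10 genes, Tgfb2, Tgfbr3, Ltbp1, Ltbp2 and Ltbp4 stood at only 0.406 to 1.42 CPM in macrophage/monocyte-like cells. FAP markers stood there at 0.354%, 0.339% and 0.388% of the FAP level, and the part of free RNA was not tested. The count below 1 with treatment includes ratios whose intervals included 1, such as Tgfbr2 at 0.999 (0.972 to 1.03) and Tgfb2 at 0.903 (0.6325 to 1.29). In FAP-like cells 7 of 10 lay above 1 with age (45.0% of all genes) and 9 of 10 below 1 with treatment (47.1%), with medians of 0.32 and -0.24 beside -0.04 and 0.02 for all genes. In MuSC/myoblast-like cells, the muscle stem cells and their progeny, 7 of 9 lay above 1 (49.1% of all genes) and all 9 below 1 (49.5%), with medians of 0.22 and -0.17 beside -0.00047 and -0.0026. Some classes were more evenly divided. Endothelial-like cells had 7 of 9 above 1 with age (45.4% of all genes) but 4 above and 5 below with treatment (43.8% of all genes below). Pericyte/smooth muscle-like cells had 6 of 9 above 1 with age (45.6%) and again 4 above and 5 below with treatment (43.0% below). Myocyte-like cells had 3 above and 4 below with age, where 60.4% of all genes lay below, and 1 above and 6 below with treatment, where 61.45% of all genes lay above. The medians in these myocyte-like cells were -0.10 and -0.27, beside -0.20 and 0.17 for all genes. Tenocyte-like cells had 7 of 10 above 1 with age (51.5%) and 8 of 10 below 1 with treatment (55.2%). Dendritic-like and T/NK-like cells had only 3 genes with enough UMIs each. Of those, 3 of 3 lay above 1 with age in dendritic-like cells (47.6% of all genes) and 2 of 3 in T/NK-like cells (52.5%), and all 3 below 1 with treatment in both (46.4% and 53.2%). Since the old PBS library is the numerator of one contrast and the denominator of the other, these 2 directions are not independent of each other.

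**Figure D2:**
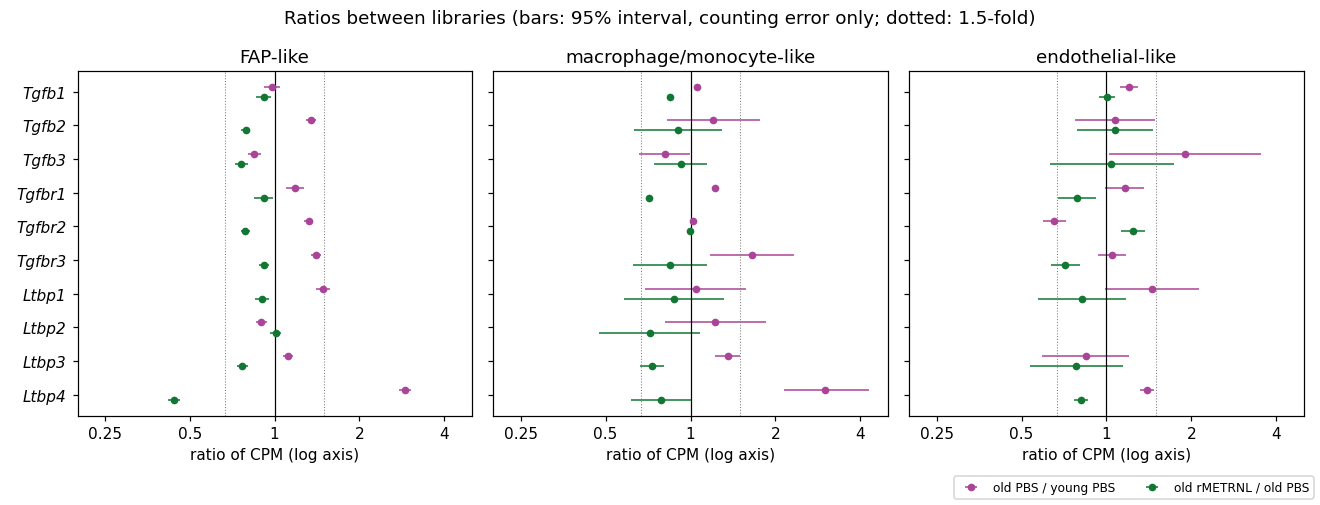
Ratio of CPM between libraries (log axis) for each of the 10 genes in FAP-like, macrophage/monocyte-like and endothelial-like cells, with 95% counting intervals as bars and dotted lines at 1.5-fold in either direction; genes under 50 UMIs are left out. Ltbp4 in FAP-like cells stood at 2.90 in the age contrast and 0.440 in the treatment contrast, while most other ratios lay between the dotted lines.

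Tgfb1 (ENSMUSG00000002603, chr7:25687002-25705077, + strand; gene coordinates here and below are from the GENCODE annotation of GRCm38), the ligand most associated with immune regulation and fibrosis, stood at 421, 443 and 375 CPM in macrophage/monocyte-like cells. T/NK-like cells followed at 361, 305 and 273 CPM, and the intervals of the 2 classes did not overlap in any library. Within T/NK-like cells the cluster led by Gzma, Xcl1 and Gzmb had 414, 549 and 363 CPM and the one led by Cd3g, Trbc2 and Cd3d 279, 189 and 200.4 CPM, and the share of these 2 clusters in the class differed between libraries. These T/NK-like cells held macrophage markers at 6.87%, 9.62% and 6.19% of the macrophage level. Old PBS was thus the highest macrophage library and old rMETRNL the lowest, with ratios of 1.05 (95% interval 1.04 to 1.07) for age and 0.848 (0.836 to 0.859) for treatment. Dendritic-like cells, which held macrophage markers at 10.1%, 12.3% and 9.26% of the macrophage level, had 236, 280 and 202 CPM of Tgfb1 and a treatment ratio of 0.722 (0.669 to 0.779).

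Endothelial-like cells had 184, 221 and 221 CPM of Tgfb1, with an age ratio of 1.20 (1.12 to 1.29). The larger clusters of this class went opposite ways, while in the cluster led by Cytl1, Gkn3 and Sema3g both ratios lay above 1. That cluster had 176, 200 and 286.5 CPM of Tgfb1, with 1.14 (0.841 to 1.54) for age and 1.43 (1.08 to 1.90) for treatment. Cells led by Gpihbp1, Cldn5 and Adgrl4 had 195, 258 and 234 CPM of Tgfb1, with ratios of 1.33 (1.22 to 1.44) for age and 0.907 (0.842 to 0.978) for treatment, whereas those led by Selp, Sele and Ackr1 had 153, 115 and 156 CPM, with 0.752 (0.619 to 0.910) and 1.36 (1.13 to 1.65). FAP-like cells had far less, at 57.8, 56.6 and 51.8 CPM, with neighbouring intervals that overlapped between young and old PBS. MuSC/myoblast-like cells stood at 74.7, 60.1 and 53.5 CPM, the highest in young PBS. In myocyte-like cells Tgfb1 was called higher with age, at 51.2, 127 and 69.0 CPM (2.49, 2.10 to 2.95), and lower with treatment (0.542, 0.457 to 0.642). Macrophage markers stood in the same order over these myocyte-like libraries (8.49%, 26.6% and 20.3% of the macrophage level, summed CPM 2508 to 7147), and their part in this result was not tested. In old PBS 273 of the Tgfb1 UMIs of the class came from the 44 cells led by Xirp2, Myh1 and Mybpc2, where the level was 343, 409 and 323 CPM. The mature fibre cells led by Pvalb, Ckm and Tcap had 21.4, 51.2 and 20.3 CPM of Tgfb1 from 3, 78 and 9 UMIs (age ratio 2.39, 0.787 to 11.8). Within the differentiating cells led by Myh3, Actc1 and Tnnt2, Tgfb1 stood at 43.6, 64.1 and 48.9 CPM, with ratios of 1.47 (1.10 to 1.95) for age and 0.763 (0.562 to 1.04) for treatment, both under the threshold.

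Tgfb2 (ENSMUSG00000039239, chr1:186622792-186705989, - strand), the ligand that depends most on betaglycan, was a stromal transcript. It stood at 139, 173 and 135 CPM in tenocyte-like cells and 119, 160 and 126 CPM in FAP-like cells, and the 2 classes overlapped in both old libraries. In FAP-like cells the old PBS library stood above the other two, with ratios of 1.35 (1.29 to 1.40) for age and 0.790 (0.759 to 0.821) for treatment. Old PBS was also the highest library in MuSC/myoblast-like cells, at 53.1, 87.3 and 50.4 CPM. Tgfb2 was called higher there with age (1.64, 1.45 to 1.86) and lower with treatment (0.577, 0.511 to 0.653). In MuSC/myoblast-like cells the intervals of young PBS and old rMETRNL overlapped.

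Pericyte/smooth muscle-like cells had 48.6, 75.7 and 52.9 CPM of Tgfb2, from 80, 79 and 65 UMIs, and were called higher with age (1.56, 1.13 to 2.15). Endothelial-like cells had 10.1 to 11.6 CPM, with overlapping intervals. Macrophage/monocyte-like cells had 0.555, 0.670 and 0.605 CPM from 54, 65 and 67 UMIs, low but above the 0.0271 to 0.0309 CPM that 3 UMIs would give there. T/NK-like cells had 0, 2 and 1 UMIs, under the limit of 3 UMIs, and the 0 in young PBS allows up to 1.72 CPM. The 2 classes where Tgfb1 was highest thus held little Tgfb2.

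Tgfb3 (ENSMUSG00000021253, chr12:86056745-86079041, - strand), a ligand known from scarless repair and palate closure, was found chiefly in FAP-like cells (96.1, 81.5 and 62.1 CPM) and tenocyte-like cells (91.9, 103 and 89.7 CPM). In FAP-like cells young PBS was highest and old rMETRNL lowest, without overlap of neighbouring intervals. The age ratio was 0.848 (0.807 to 0.892) and the treatment ratio 0.762 (0.721 to 0.805), and old rMETRNL over young PBS was 0.647 (0.616 to 0.679). Tgfb3 was thus one of 3 genes that lay below 1 in the age contrast in FAP-like cells, beside Tgfb1 and Ltbp2. Within the 9 FAP-like sub-clusters with at least 20 cells in each library these age ratios were mostly above 1, in 6 of 9 for Tgfb3 (median 1.04), 6 of 9 for Tgfb1 (median 1.15) and 5 of 9 for Ltbp2 (median 1.09), so the direction over the class was not that of most sub-clusters. In pericyte/smooth muscle-like cells the direction was the opposite, at 36.5, 41.2 and 80.5 CPM from 60, 43 and 99 UMIs, and Tgfb3 was called higher with treatment (1.96, 1.35 to 2.87). Endothelial-like cells had 2.25, 4.26 and 4.41 CPM from 21, 26 and 48 UMIs, and were called higher with age with a wide interval (1.89, 1.02 to 3.54). Over 13 alternatives this Tgfb3 ratio ranged from 1.56 to 3.43, the highest with the mean of per-cell CPM, and under the stricter cell filter its interval included 1 (1.70, 0.870 to 3.34).

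**Figure D3:**
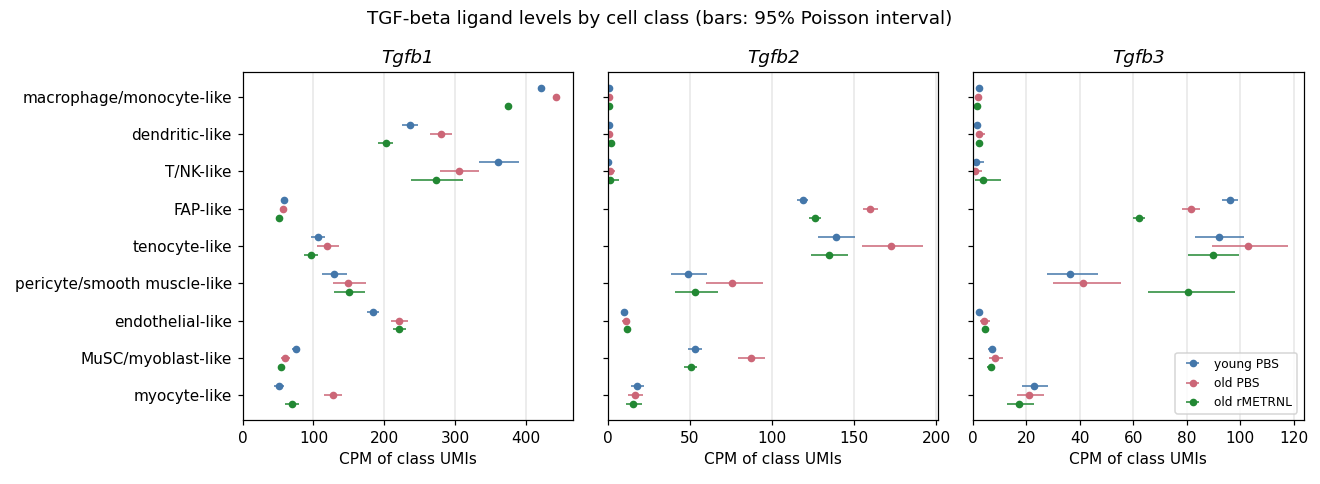
Level in CPM of Tgfb1, Tgfb2 and Tgfb3 in each of the 9 cell classes, 1 point for each library with its 95% Poisson interval as a bar. Tgfb1 was highest in macrophage/monocyte-like cells at 375 to 443 CPM, whereas Tgfb2 and Tgfb3 were highest in FAP-like, tenocyte-like and, for Tgfb3 in old rMETRNL, pericyte/smooth muscle-like cells.

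Tgfbr1 (ENSMUSG00000007613, chr4:47353222-47414931, + strand), the type I receptor kinase that phosphorylates SMAD2 and SMAD3, stood at 124, 151 and 108 CPM in macrophage/monocyte-like cells. The class next in order stood at 56.5 CPM in young PBS (pericyte/smooth muscle-like), 65.9 in old PBS and 55.6 in old rMETRNL (both tenocyte-like), so macrophages led by 1.94-fold to 2.29-fold. Old PBS was highest and old rMETRNL lowest in macrophages, without overlap, with ratios of 1.22 (1.19 to 1.25) for age and 0.714 (0.697 to 0.731) for treatment. FAP-like cells had 34.0, 40.1 and 36.6 CPM and endothelial-like cells 40.3, 46.7 and 36.7 CPM. In myocyte-like cells Tgfbr1 was called higher with age, at 25.8, 60.6 and 36.5 CPM (2.35, 1.84 to 2.999), and lower with treatment (0.603, 0.473 to 0.765), with the same order of macrophage markers as given for Tgfb1. Within the Myh3, Actc1 and Tnnt2 cluster the Tgfbr1 level was 25.2, 33.4 and 31.6 CPM and both intervals included 1, at 1.32 (0.884 to 1.95) for age and 0.946 (0.629 to 1.44) for treatment. In the 7, 44 and 17 cells led by Xirp2, Myh1 and Mybpc2, which held 135 of the old PBS UMIs of Tgfbr1 in the class, it was 52.8, 202 and 137 CPM, from 6 UMIs in young PBS, with ratios of 3.83 (1.71 to 10.6) and 0.677 (0.455 to 0.985). In the Pvalb, Ckm and Tcap cluster, which held 436 of the 511 old PBS cells, it was 21.4, 19.0 and 2.25 CPM from 3, 29 and 1 UMIs, with ratios of 0.887 (0.275 to 4.55) and 0.118 (0.0029 to 0.714).

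Tgfbr2 (ENSMUSG00000032440, chr9:116084293-116175360, - strand), the type II receptor that binds ligand first, was spread over stromal, endothelial and myeloid classes. Macrophage/monocyte-like cells had 96.5, 98.6 and 98.5 CPM, with overlapping intervals, and ratios of 1.02 (0.993 to 1.05) for age and 0.999 (0.972 to 1.03) for treatment. Both intervals include 1, unlike those of Tgfbr1 in the same cells. FAP-like cells had 138, 183 and 144 CPM, and ratios of 1.32 (1.28 to 1.37) for age and 0.788 (0.760 to 0.817) for treatment.

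In endothelial-like cells Tgfbr2 went the other way and was called lower with age, at 158, 103 and 128 CPM (0.653, 0.594 to 0.717), with a treatment ratio of 1.24 (1.13 to 1.37). The age ratio did not pass the threshold under 3 of 14 alternatives, at up to 0.717 with all called doublets kept, and lay below 1 in each. The median UMI count of endothelial-like cells followed the same order (10979, 3749 and 6913), and its part in this result was not tested across the class. The make-up of the class moved as well. The cluster led by Gpihbp1, Cldn5 and Adgrl4 held 427, 710 and 724 cells and had 175, 109.6 and 139 CPM of Tgfbr2 (age ratio 0.626, 0.561 to 0.698). The cluster led by Selp, Sele and Ackr1 held 158, 119 and 168 cells with median UMI counts of 12140, 11200 and 11667, and had 113, 79.2 and 91.1 CPM (0.703, 0.557 to 0.884). In the cluster led by Cytl1, Gkn3 and Sema3g the level was 133, 123 and 112 CPM (0.926, 0.637 to 1.34), so the age ratio lay below 1 in all 3 clusters with an interval that included 1 in the smallest. Among endothelial-like cells thinned to 2000 UMIs, 20.4% (17.2% to 23.9%), 16.9% (14.1% to 19.9%) and 19.5% (16.7% to 22.5%) had a Tgfbr2 UMI, and these intervals overlapped. In T/NK-like cells Tgfbr2 was called higher with age, at 53.9, 94.5 and 64.2 CPM (1.75, 1.35 to 2.29). The age ratio was 2.10 (1.42 to 3.18) within the cluster led by Cd3g, Trbc2 and Cd3d and 1.31 (0.852 to 1.99) within the one led by Gzma, Xcl1 and Gzmb. In myocyte-like cells it was called higher at 24.9, 39.3 and 34.5 CPM (1.58, 1.21 to 2.07), and within the Myh3, Actc1 and Tnnt2 cluster the level was 22.3, 39.5 and 27.6 CPM (1.77, 1.21 to 2.57). In the Xirp2, Myh1 and Mybpc2 cluster Tgfbr2 was at 141, 94.3 and 125 CPM, and the age ratio lay on the other side of 1 (0.670, 0.382 to 1.24), and the Pvalb, Ckm and Tcap cluster held 0, 23 and 7 Tgfbr2 UMIs.

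Tgfbr3 (ENSMUSG00000029287, chr5:107106570-107289629, - strand), which encodes the co-receptor betaglycan, was highest in tenocyte-like cells at 153, 246 and 207 CPM, and was called higher there with age (1.61, 1.43 to 1.81). The treatment ratio in these cells was 0.841 (0.752 to 0.942). FAP-like cells followed at 97.7, 137 and 126 CPM, with ratios of 1.41 (1.35 to 1.47) for age and 0.919 (0.882 to 0.957) for treatment, so that both old libraries stood above young PBS in both classes. Endothelial-like cells had 77.95, 81.4 and 58.1 CPM, with a treatment ratio of 0.713 (0.633 to 0.804). Macrophage/monocyte-like cells had 0.576, 0.948 and 0.804 CPM from 56, 92 and 89 UMIs and were called higher with age (1.65, 1.17 to 2.34), while FAP markers stood at 0.354%, 0.339% and 0.388% of the FAP level; their part in the result was not tested.

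Ltbp4 (ENSMUSG00000040488, chr7:27305136-27337692, - strand), which binds latent TGF-beta and helps assemble elastic fibres, showed the largest difference of the 10 genes in FAP-like cells. Its FAP level was 49.7, 144 and 63.4 CPM, from 2225, 4324 and 2741 UMIs. Old PBS stood far above both other libraries, and Ltbp4 was called higher with age (2.90, 2.76 to 3.06) and lower with treatment (0.440, 0.419 to 0.461). Old rMETRNL still lay above young PBS, at a ratio of 1.28 (1.21 to 1.35). FAP-like cells held 38.7%, 56.5% and 38.6% of the Ltbp4 UMIs of kept cells, and endothelial-like cells 42.6%, 29.1% and 45.4%, and the share of FAP-like cells in all UMIs of kept cells was 24.1%, 19.4% and 21.9%.

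The vessel classes had the highest Ltbp4 levels and smaller differences. Endothelial-like cells stood at 262, 364 and 296 CPM, with ratios of 1.39 (1.31 to 1.47) for age and 0.811 (0.768 to 0.857) for treatment. When CPM was averaged over single cells this treatment ratio was 0.985 (0.933 to 1.04). The highest level was that of the 39, 52 and 44 endothelial-like cells led by Cytl1, Gkn3 and Sema3g, at 1100.5, 1374 and 1400.0 CPM, with ratios of 1.25 (1.11 to 1.40) for age and 1.02 (0.910 to 1.14) for treatment. These cells held 637, 569 and 689 Ltbp4 UMIs, fewer than the 1274, 1188 and 2003 of the cluster led by Gpihbp1, Cldn5 and Adgrl4. The larger clusters had 191, 279 and 242 CPM (Gpihbp1, Cldn5 and Adgrl4) and 257, 328 and 247 CPM (Selp, Sele and Ackr1). Pericyte/smooth muscle-like cells stood at 252, 356 and 307 CPM, with overlapping intervals against endothelial-like cells in each library, and their endothelial markers are given above. In MuSC/myoblast-like cells Ltbp4 was low but showed the same order as in FAP-like cells, at 8.54, 15.0 and 9.30 CPM from 105, 78 and 115 UMIs. It was called higher there with age (1.76, 1.30 to 2.38) and lower with treatment (0.619, 0.460 to 0.836). FAP markers stood in MuSC/myoblast-like cells at 2.97%, 3.05% and 2.72% of the FAP level, and their part in this result was not tested. Tenocyte-like cells, in contrast, had 62.4, 72.8 and 61.6 CPM, with overlapping intervals. Macrophage/monocyte-like cells had 0.473, 1.42 and 1.12 CPM and were called higher with age (3.01, 2.14 to 4.29), while FAP markers in them stood at 0.354%, 0.339% and 0.388% of the FAP level. The part of these markers' source in that result was not tested.

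The share of FAP-like cells with an Ltbp4 UMI followed the level. After each cell was thinned to 2000 UMIs, 10.2% (8.81% to 11.8%), 25.0% (22.6% to 27.4%) and 12.4% (10.9% to 14.1%) of FAP-like cells had one. Without thinning the shares were 50.1%, 72.3% and 54.4%, at median UMI counts of 26056, 22132 and 24738. In macrophage/monocyte-like cells, taken for comparison, the thinned shares were 0.0992%, 0.245% and 0.230%, at median UMI counts of 14240, 14959 and 14574. The thinned shares in endothelial-like cells were 38.0%, 45.0% and 41.4%. The FAP shares thus lay well above the macrophage shares in each library, and the old PBS interval did not overlap the other two. Thinning left out 0, 11 and 16 FAP-like cells, 42, 80 and 66 macrophage/monocyte-like cells and 40, 205 and 183 endothelial-like cells.

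Ltbp1 (ENSMUSG00000001870, chr17:75005568-75392512, + strand), which anchors latent TGF-beta to fibronectin and fibrillin, had 132, 102 and 118 CPM in tenocyte-like cells. FAP-like cells had 51.9, 77.1 and 69.6 CPM, both old libraries being higher, with ratios of 1.49 (1.40 to 1.57) for age, just under the threshold, and 0.903 (0.855 to 0.954) for treatment. This age ratio passed the threshold under 3 of 14 alternatives, at up to 1.55 with the stricter cell filter, so whether Ltbp1 was called in FAP-like cells depended on the processing. MuSC/myoblast-like cells stood at nearly the same level in the 3 libraries, with 56.4, 56.6 and 56.2 CPM. Ltbp1 was called higher with age in pericyte/smooth muscle-like cells, at 48.0, 112 and 90.3 CPM from 79, 117 and 111 UMIs (2.33, 1.74 to 3.14). It was called lower with age in myocyte-like cells, at 43.3, 18.9 and 47.4 CPM (0.436, 0.322 to 0.585), and higher there with treatment (2.505, 1.85 to 3.43). Ltbp1 UMIs of this class came almost entirely from the differentiating cells led by Myh3, Actc1 and Tnnt2, of which old PBS had the fewest (95, 31 and 63 cells). Within these cells the level was 45.9, 49.2 and 62.3 CPM, with ratios of 1.07 (0.778 to 1.45) for age and 1.27 (0.922 to 1.76) for treatment, and both intervals included 1.

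Ltbp2 (ENSMUSG00000002020, chr12:84783212-84876532, - strand), an elastic fibre protein that does not bind latent TGF-beta, was found almost entirely in FAP-like cells (136, 122 and 123 CPM) and tenocyte-like cells (157, 90.5 and 156 CPM). In the other 7 classes it stayed between 0 and 4.07 CPM. The FAP ratios were 0.898 (0.862 to 0.936) with age and 1.01 (0.967 to 1.05) with treatment. In tenocyte-like cells old PBS lay below both other libraries, and Ltbp2 was called lower with age (0.577, 0.487 to 0.681) and higher with treatment (1.72, 1.46 to 2.04). This order was the reverse of that of Ltbp4 in FAP-like cells. In the same tenocyte libraries FAP markers stood at 109.7%, 78.8% and 105% of the FAP level, in the same order as Ltbp2, and macrophage markers at 4.79%, 10.3% and 5.69% of the macrophage level, and the part of either in the result was not tested. Endothelial-like cells held 3, 4 and 3 Ltbp2 UMIs.

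Ltbp3 (ENSMUSG00000024940, chr19:5740904-5758532, + strand), which supports secretion of latent TGF-beta in skeletal tissue, was highest in tenocyte-like cells at 199, 163 and 161 CPM. FAP-like cells had 110.03, 123 and 94.3 CPM, with ratios of 1.11 (1.07 to 1.16) for age and 0.769 (0.735 to 0.804) for treatment. In macrophage/monocyte-like cells it was low, at 6.58, 8.92 and 6.53 CPM from 640, 866 and 723 UMIs, with old PBS above the other 2 libraries. The macrophage ratios were 1.36 (1.22 to 1.504) with age and 0.732 (0.662 to 0.808) with treatment, under the threshold.

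FAP-like cells were divided further, and the 10 genes varied more among these sub-clusters than among libraries. Sub-clusters are named by their 3 leading genes. In each library, cells led by Pi16, Efhd1 and Dpp4, genes of the universal fibroblast state, had the highest Tgfbr2 (347, 446 and 362 CPM) and Ltbp1 (149, 203 and 150.5 CPM) and the lowest Ltbp2 (10.4, 6.69 and 5.93 CPM). Cells led by Fmo2, Cd200 and Gdf10, which numbered 20, 26 and 16, had the lowest Ltbp1 in each library (17.0, 19.7 and 21.2 CPM). Cells led by Slc16a3, Idi1 and Acta2 had the lowest Ltbp3 (51.7, 37.2 and 51.7 CPM) and Tgfbr2 (86.7, 71.1 and 69.0 CPM) in each library.

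Ltbp3 was highest in cells led by Trf, Col28a1 and Nipal1 in each library (167, 189 and 170.3 CPM). Of these sub-clusters, 3 held 1 leading marker of another class and none of the FAP list: the cells led by Fmo2, Cd200 and Gdf10 and those led by Gucy1a1, Tenm4 and Gucy1b1 (the pericyte markers Abcc9 and Notch3) and those led by Trf, Col28a1 and Nipal1 (the glial marker Cdh19). Where 1 such marker was enough to remove a sub-cluster, the ratios of Ltbp4 over FAP-like cells were 3.02 for age and 0.435 for treatment.

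For Ltbp2, Tgfb1, Tgfb2, Tgfb3, Tgfbr1, Tgfbr3 and Ltbp4 the leading FAP-like sub-cluster changed between libraries. Pooled over the 3 libraries Ltbp2 was highest in the Fmo2, Cd200 and Gdf10 cells at 329 CPM, but its level there was 505, 149.9 and 169.7 CPM, while the highest level was that of the Trf, Col28a1 and Nipal1 cells in old PBS (303 CPM in 25 cells) and of the Slc16a3, Idi1 and Acta2 cells in old rMETRNL (211 CPM). Tgfb3 was highest when pooled in cells led by Inka1, Swt1 and Trmt1l (148, 126 and 112 CPM), yet led there in no single library. Cells led by Trf, Col28a1 and Nipal1 had more Tgfb3 in young PBS (154 CPM in 9 cells) and old rMETRNL (119 CPM in 20 cells), and those led by Hspb1, Dnaja4 and Fos had more in old PBS (162 CPM). Ltbp4 and Tgfbr3 were highest when pooled in cells led by Alpl, Hmcn2 and Ces1d, at 512 and 225 CPM. In old PBS, however, which held 87 of those 139 cells, Ltbp4 was higher in the Fmo2, Cd200 and Gdf10 cells (596 against 578 CPM) and Tgfbr3 in the Pi16, Efhd1 and Dpp4 cells (231 against 219.5 CPM). Tgfb1 and Tgfb2 were highest in cells led by Gucy1a1, Tenm4 and Gucy1b1 in both old libraries, at 108 and 121 CPM and at 248 and 225 CPM. In young PBS the Fmo2, Cd200 and Gdf10 cells had more Tgfb1 (136 against 93.9 CPM). Tgfbr1 was highest in the Alpl, Hmcn2 and Ces1d cells in young PBS and old rMETRNL (65.8 and 71.7 CPM) and in those led by Myoc, Clu and Inmt in old PBS (51.8 against 49.7 CPM).

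The Ltbp4 difference was present within FAP-like sub-clusters as well. In 9 sub-clusters with at least 20 cells in each library, all 9 age ratios lay above 1 (1.26 to 3.85, median 2.42) and all 9 treatment ratios below 1 (0.368 to 0.779, median 0.496). The sub-cluster with the most Ltbp4 held 11, 87 and 41 cells in the 3 libraries, so its share also moved with the gene. That sub-cluster was not among the 9 above. With the 9 weighted equally the ratios were 1.97 and 0.559, nearer to 1 than the values over all FAP-like cells. The latter values also include the sub-clusters left out of the 9. Ltbp1 lay above 1 with age in 9 of 9 sub-clusters (median 1.36), and Tgfb3 and Tgfbr2 lay below 1 with treatment in 9 of 9 (medians 0.754 and 0.795). The age ratio of Tgfb2 was above 1 in 6 of 9 with a median of 1.05, which is less than its value over all FAP-like cells.

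**Figure D4:**
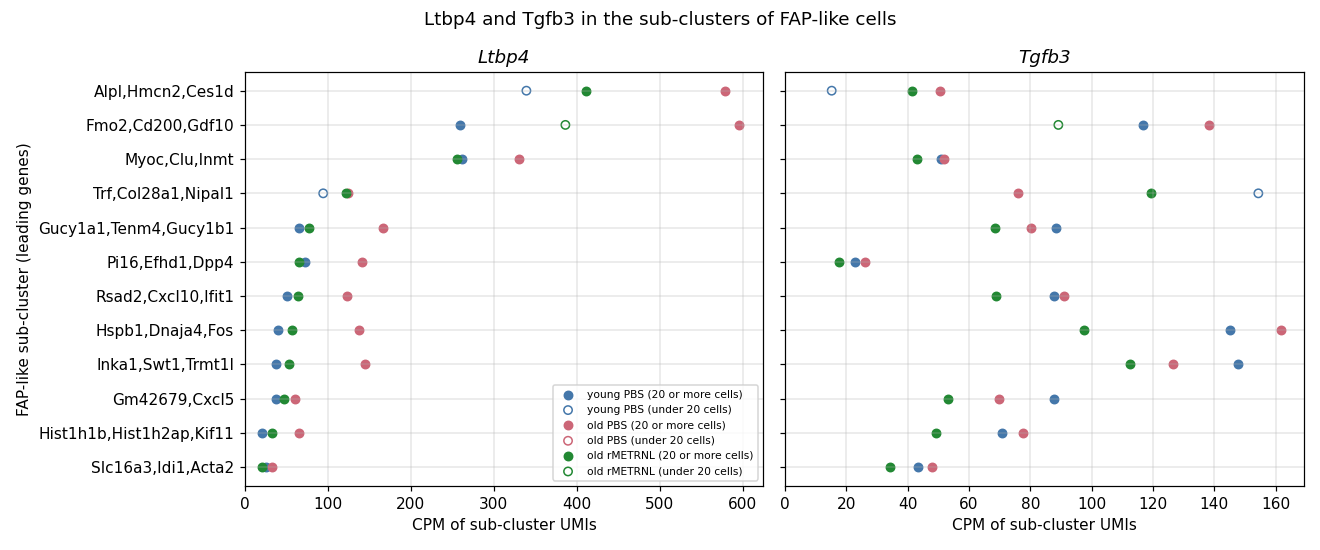
Level in CPM of Ltbp4 (left) and Tgfb3 (right) in each FAP-like sub-cluster, named by 2 or 3 of its leading genes, 1 point for each library, with open points where a library had under 20 cells. The old PBS point for Ltbp4 lay right of the other 2 in each sub-cluster, and the old rMETRNL point for Tgfb3 lay left of old PBS in all but the sub-cluster led by Trf, Col28a1 and Nipal1.

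Macrophage/monocyte-like sub-clusters differed more in both kinase receptors than in Tgfb1. Tgfbr1 ranged from 259 CPM in cells led by Dnase1l3, Vcam1 and Cxcl9 to 19.7 CPM in cells led by Tslp, Chp2 and Fam43a, pooled over libraries, and this highest and lowest place held in each library. Tgfbr2 ranged from 252 CPM in cells led by Cd209f, Cd209g and Pla2g2d, genes of resident tissue macrophages, to 35.5 CPM in cells led by Retnla, Ear2 and Dcstamp, which also had the T-cell marker Cd2 among their leading genes, although in old PBS the Tslp, Chp2 and Fam43a cells were slightly higher than the former (246 against 243 CPM). Tgfb1 ranged only from 521 CPM in the Dnase1l3, Vcam1 and Cxcl9 sub-cluster to 220.3 CPM in the small one led by Mmp9, Ctsk and Slc9b2, genes typical of osteoclast-like cells. The Dnase1l3, Vcam1 and Cxcl9 sub-cluster, which had the most Tgfbr1, held 556, 976 and 507 cells, so its share moved with that gene. With the sub-clusters of at least 20 cells in each library weighted equally, the Tgfbr1 ratios were 1.13 for age and 0.791 for treatment. These are nearer to 1 than the 1.22 and 0.714 over all macrophage/monocyte-like cells. In all 17 sub-clusters with at least 20 cells per library, the treatment ratio lay below 1 for Tgfb1 (median 0.868) and for Tgfbr1 (median 0.782). The age ratio lay above 1 in 12 of 17 for Tgfb1 and 14 of 17 for Tgfbr1, and Tgfbr2 was divided, with 8 treatment ratios above 1 and 9 below.

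**Figure D5:**
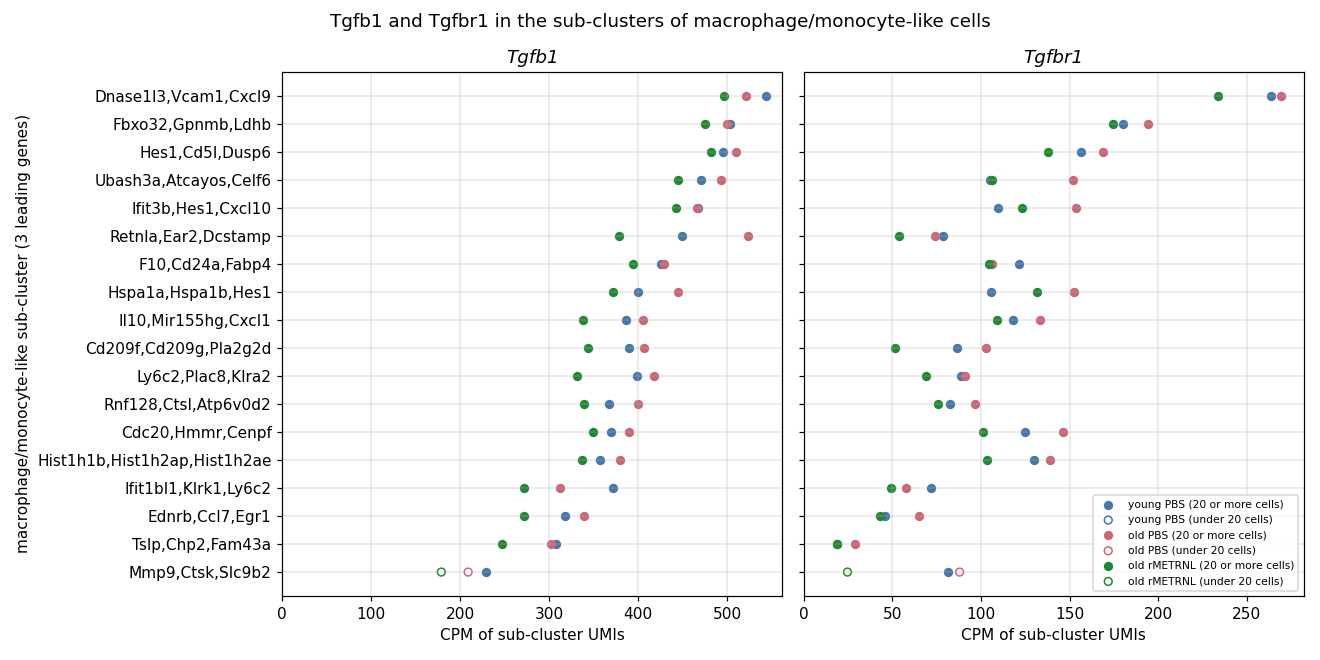
Level in CPM of Tgfb1 (left) and Tgfbr1 (right) in each macrophage/monocyte-like sub-cluster, named by its 3 leading genes, 1 point for each library, with open points where a library had under 20 cells. The old rMETRNL point lay left of the old PBS point for both genes in all sub-clusters, and Tgfbr1 varied more among sub-clusters than Tgfb1.

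Shares of cells with a UMI, counted in cells thinned to 2000 UMIs, gave the same picture for the other leading pairs. Tgfb1 was found in 53.7%, 57.1% and 48.9% of macrophage/monocyte-like cells and 11.2%, 9.69% and 9.56% of FAP-like cells (not thinned 95.2%, 94.8% and 93.7%, and 57.6%, 55.0% and 54.7%). Tgfbr1 was found in 20.6%, 23.0% and 18.1% of macrophage/monocyte-like cells (not thinned 64.4%, 71.6% and 60.9%). Tgfb2 was found in 17.5%, 23.8% and 20.2% of FAP-like cells against 0.0661%, 0.210% and 0.107% of macrophage/monocyte-like cells (not thinned 71.7%, 72.6% and 72.9% against 0.772%, 1.02% and 0.955%). Tgfb3 was found in 16.9%, 15.0% and 10.8% of FAP-like cells against 0.413%, 0.316% and 0.214% (not thinned 73.5%, 62.8% and 59.3% against 2.81%, 2.56% and 2.31%). For both stromal ligands the share in FAP-like cells lay far above that in macrophage/monocyte-like cells. The level of Tgfb3 in macrophage/monocyte-like cells was 2.14, 1.73 and 1.598 CPM, from 208, 168 and 177 UMIs, where FAP markers stood at 0.354%, 0.339% and 0.388% of the FAP level; the part of free RNA in it was not tested.

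The wider pathway was described through 5 lists: activation of latent TGF-beta, matrix and binding proteins, accessory receptors, signal transducers and inhibitors, and target genes. In FAP-like cells 2 of 15 activation genes were called higher with age and 1 lower, and 1 was called lower with treatment. Over all genes of FAP-like cells 6.18% were called higher and 5.76% lower with age, and 3.82% and 3.63% with treatment, so 1 gene in lists of 10 to 15 is close to those shares. Nrros, which tethers latent TGF-beta at the cell surface, had 2.14, 3.27 and 1.78 CPM (1.53 with age and 0.545 with treatment). Nrros stood at 160.4, 173 and 147 CPM in macrophage/monocyte-like cells, and macrophage markers stood in FAP-like cells at 1.17%, 1.35% and 1.29% of their macrophage level; their part in this result was not tested. Plau, the protease urokinase, was called higher with age at 89.9, 146 and 127 CPM (1.63), and Mmp9, a matrix protease, lower at 26.2, 14.6 and 17.4 CPM (0.560). The median log2 ratio of this list was 0.36 with age and -0.14 with treatment, beside -0.04 and 0.02 for all genes.

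Among 10 matrix and binding genes of FAP-like cells, 1 was called in each direction with age and 1 higher with treatment. Decorin (Dcn), a proteoglycan that binds TGF-beta, had 3678, 6086 and 4653 CPM and was called higher with age (1.65). Fibrillin 2 (Fbn2), a microfibril protein to which LTBPs bind, had 54.1, 10.7 and 17.8 CPM and was called lower with age (0.198, 0.176 to 0.222) and higher with treatment (1.66). Old PBS therefore stood highest for Dcn and lowest for Fbn2. None of 6 accessory receptors and none of 11 transducers and inhibitors was called in FAP-like cells in either contrast, and the feedback inhibitor Smad7 was at 136, 138 and 133 CPM.

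Of 13 target genes in FAP-like cells, 1 was called higher and 2 lower with age, and 1 in each direction with treatment. The contractile genes Tagln (116, 41.4 and 65.3 CPM) and Acta2 (206, 113 and 153 CPM) were called lower with age (0.358 and 0.549), and Tagln was called higher with treatment (1.58). The sub-cluster led by Slc16a3, Idi1 and Acta2 held 118, 33 and 125 FAP-like cells, so it too was lowest in old PBS. Its part in these results was not tested. Ctla2a, a cysteine protease inhibitor, had 3.24, 6.94 and 2.87 CPM and was called higher with age (2.14) and lower with treatment (0.413). Pmepa1, a feedback inhibitor, was at 352, 501 and 491 CPM (1.42 with age). Old PBS was thus the lowest library for the contractile targets and the highest for Ctla2a and Pmepa1.

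In macrophage/monocyte-like cells 2 of 14 activation genes were called higher with age and 1 lower, and 1 in each direction with treatment. Over all genes of these cells 5.52% were called higher and 5.86% lower with age, and 4.97% and 3.03% with treatment, so single calls in lists of 9 to 14 genes are close to those shares. Lrrc32, which docks latent TGF-beta on the cell surface, had 2.87, 5.04 and 3.21 CPM and was called higher with age (1.76) and lower with treatment (0.636). Of 9 matrix and binding genes 2 were called higher with age, and 1 in each direction with treatment. Vasn, a membrane protein that binds TGF-beta, had 3.75, 7.87 and 5.16 CPM and was called in the same directions (2.10 and 0.655). The integrin gene Itgb8 was called higher with age on 59 UMIs in all (0.0926, 0.268 and 0.217 CPM), and Dcn, a fibroblast transcript, at 13.7, 24.6 and 20.5 CPM (1.80), with FAP markers in these cells as given above. Mmp9 had 20.03, 0.690 and 1.37 CPM and was called lower with age (0.0345) and higher with treatment (1.99). The sub-cluster led by Mmp9 held 33, 3 and 10 cells in the 3 libraries. With treatment, Fbln5, an elastic fibre protein (1.995, 1.78 and 2.91 CPM), was also called higher and the inhibitory Smad6 (2.33, 2.46 and 1.57 CPM) lower, and with age 2 of 12 targets, the cytokine gene Il11 (0.278, 0.525 and 0.424 CPM) and the transcription factor gene Bhlhe40 (114, 191 and 135 CPM), were called higher. None of the 6 accessory receptors was called.

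Of the genes followed whatever their values, thrombospondin 1 (Thbs1), an activator of latent TGF-beta, was highest in old PBS in both main classes. It had 499, 728 and 505 CPM in FAP-like cells and 346, 475 and 339 CPM in macrophage/monocyte-like cells, giving 1.46 and 1.37 for age and 0.694 and 0.713 for treatment, all under the threshold. The integrin gene Itgav was at 137, 159 and 149.7 CPM in FAP-like cells, and Itgb8 at 4.11, 4.27 and 4.14 CPM. In endothelial-like cells Pmepa1 had 106, 97.6 and 150.2 CPM and was called higher with treatment (1.54). Of the 13 target genes in these cells, 2 were called higher and 3 lower with age, and 6 higher and 1 lower with treatment. Over all their genes 7.94% were called higher and 7.8% lower with age, and 6.22% and 5.55% with treatment. Old PBS was the lowest endothelial library for Pmepa1 and Tgfbr2, and also the one with the fewest UMIs per cell.

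Genes whose profile was most like each member were taken by Pearson's r of log2(CPM + 1) over 27 points, the 9 classes in 3 libraries, which share library, depth and free RNA. The profile of Tgfb1 was most like those of Ubl3 (0.947) and Gna13 (0.935), that of Tgfbr1 like Lamp1 (0.959) and Plbd2 (0.922), and that of Tgfbr2 like Nucb1 (0.902) and Pxk (0.901). Tgfb2 was most like Zfp9 (0.981) and Rbms3 (0.9748), Tgfb3 like Pdzrn3 (0.964) and Sobp (0.963), and Tgfbr3 like Nid1 (0.970) and Myc (0.968). Among the latency genes, Ltbp1 was most like Igfbp5 (0.976) and Sspn (0.9749), Ltbp2 like Svep1 (0.986) and Ccbe1 (0.979), Ltbp3 like Tm7sf3 (0.974) and Pofut2 (0.967), and Ltbp4 like Adamts1 (0.988) and Ptprg (0.987). Tgfb1 and Tgfb2 themselves had r = -0.83 over the same 27 points.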

How the data were processed

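The authors deposited whole-number counts of UMIs for every gene in every barcode, made with Cell Ranger. The matrix headers give version 5.0.0, the submitters' processing notes list 5.0.0 and 3.1.0 with build mm10, and the methods name another version; the annotation release was not given in the sources used here. Each of the 3 groups was 1 library of pooled mice, so no p-value was computed, and counting intervals do not cover differences between mice. The 10 genes and all lists were chosen with earlier results of these data known.

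Barcodes had to show 500 or more genes and less than 10% mitochondrial UMIs. Scrublet scores called 0 doublets at the automatic threshold, so the top-scoring cells at 0.8% per 1000 barcodes were removed (1110, 1112 and 1433). Counts were normalised to 10000 per cell with scanpy 1.11.5, and 2000 variable genes without the 10 genes and mitochondrial genes, 30 components, 20 neighbours and Leiden resolution 0.8 gave clusters, named from 14 marker lists ("-like"). A cluster with no leading marker was named when 80% of a list's markers were detected. FAP-like and macrophage/monocyte-like sub-clusters left their class when at least 2 leading markers of another class outnumbered their own, when they had low UMI counts and no marker of their own, or when markers of another class reached 10% of that class's level; these conditions were set after the cluster tables were seen. They removed 58, 63 and 111 FAP-like and 181, 252 and 241 macrophage/monocyte-like cells, and 29, 69 and 56 cells stayed unnamed.

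UMIs were summed per class with at least 100 cells in each library and scaled to CPM. Levels within clusters of the myocyte-like, endothelial-like and T/NK-like classes were added after seeing the data. Levels carry exact Poisson intervals, ratios exact conditional intervals, and shares Clopper-Pearson intervals, all at 95% (SciPy 1.17.1); a limit for 0 counts is 3 counts. The ratio calculation was tested on simulated data. Beside the 10 genes, the text names up to 3 called genes with the largest ratio per pathway list in FAP-like and macrophage/monocyte-like cells, 6 genes fixed whatever their values (1 of them is not reported here), and the 2 genes most correlated with each member. Alternatives changed the doublet, cell and UMI filters, the resolution, library centring, scaling and class membership.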

Additional observations from a re-analysis of the deposited data

Results flagged for a closer look

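Tgfbr2, the ligand-binding type II receptor, was called in opposite directions in the age contrast between cell classes. It was higher in old PBS than in young PBS in T/NK-like cells (1.75, 95% counting interval 1.35 to 2.29) and in myocyte-like cells (1.58, 1.21 to 2.07), and lower in endothelial-like cells (0.653, 0.594 to 0.717). The endothelial ratio did not pass the 1.5-fold threshold under 3 of 14 alternatives, at up to 0.717. With 1 library per group the difference between classes was not tested. T/NK-like cells held macrophage markers at 6.87% and 9.62% of the macrophage level in young and old PBS and myocyte-like cells at 8.49% and 26.6%, while the median UMI count of endothelial-like cells was 10979 and 3749; the part of these in the result was not tested. Clusters also changed in share within all 3 classes. The age ratio was 2.10 (1.42 to 3.18) and 1.31 (0.852 to 1.99) within the 2 T/NK-like clusters, 1.77 (1.21 to 2.57) within the differentiating myocyte-like cells led by Myh3, Actc1 and Tnnt2, 0.670 (0.382 to 1.24) within the myocyte-like cells led by Xirp2, Myh1 and Mybpc2, and 0.626 (0.561 to 0.698) and 0.703 (0.557 to 0.884) within the 2 largest endothelial-like clusters.

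Ltbp1, which anchors latent TGF-beta to matrix, was lower in old PBS in myocyte-like cells (0.436, 0.322 to 0.585) and higher in pericyte/smooth muscle-like cells (2.33, 1.74 to 3.14), and this difference was not tested either. The myocyte-like cells led by Myh3, Actc1 and Tnnt2 numbered 95 in young PBS and 31 in old PBS, and within them the Ltbp1 ratio was 1.07 (0.778 to 1.45). Pericyte/smooth muscle-like cells held endothelial markers at 53.9% and 40.3% of the endothelial level in these libraries, where Ltbp1 in endothelial-like cells was at 6.21 and 9.01 CPM.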

How the results depend on the processing

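Counts of called pairs of gene and class moved with some settings. With all called doublets kept, 5 pairs were called lower with age and 9 lower with treatment. Under a stricter cell filter, which left 6 classes and 44 pairs, 7 were called higher and 1 lower with age, 1 higher with treatment, and 8 genes had 1 leading class in the 3 libraries. At resolution 1.6, 3 were called lower with treatment. With the mean of per-cell CPM, 6 were called lower with age. Without the myocyte-like class, an alternative chosen after seeing the data, 3 were called lower with treatment. The stricter filter and the last alternative compare fewer classes; for the others the cause was not tested. Of 802 recomputed ratios in FAP-like, macrophage/monocyte-like and endothelial-like cells over 14 alternatives, 779 lay within the reported interval and 23 outside it, 17 of these with the mean of per-cell CPM. None of the called ratios reversed, and 25 ratios that were not called lay on the other side of 1. The FAP-like ratio of Ltbp4 ranged from 2.84 to 3.02 with age and from 0.431 to 0.467 with treatment. Leaving out the barcodes that libraries share and letting 1 leading marker remove a sub-cluster were also added after seeing the data. No paired analysis was possible because each group was 1 library, and for the same reason no replicate could be left out. Pairs under 50 UMIs, 20 of 90, were too shallow to call.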
